A study of Homo sapiens with 6 samples.

Results

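The TRIM (tripartite motif) genes were examined in KYSE450 cells, a long-established line of human esophageal squamous cell carcinoma. Members were all rows of the deposited expression matrix whose gene name was TRIM followed by digits, with at most 1 further letter and no other suffix. This gave 59 genes among 27887 rows. The rule used names only and no measured value.

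RNA-seq compared 3 libraries from cells given a mock virus infection with 3 libraries from cells infected with a virus carrying a short hairpin RNA against HMGB2, a chromatin protein that bends DNA. The line is labelled wild type in both groups, and the design text names a search for regulators of cholesterol metabolism as the purpose. The sources used here do not state what the mock virus carried, and the labels describe 1 hairpin virus in 1 line. Nothing in the labels ties replicate libraries to separate cultures, so p-values reflect only how far these libraries vary, and that variation may be technical.

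TRIM proteins share a RING finger, B-box zinc fingers and a coiled coil, followed by a C-terminal domain that differs between subfamilies and usually selects the target. The RING finger recruits an E2 enzyme and transfers ubiquitin or a related modifier, so most members act as E3 ubiquitin ligases. Many members bind viral proteins or tune RIG-I, cGAS and interferon signalling, and a subset is itself switched on by interferon through promoter sequences called interferon-stimulated response elements (ISREs). Others act in transcriptional silencing, at microtubules or in muscle.

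The promoter windows below are those of members listed as interferon-inducible that held a match to ISRE-like letters. Of these, 4 belong to genes that were higher in the shHMGB2 libraries, and the windows were chosen with these calls known. Whether interferon acted through any of them here was not tested. Each is 30 bases, read 5′ to 3′ on the strand of its gene, from RefSeq promoters of GRCh38.p14. Capitals mark matches to the ISRE-like letters GAAANNGAAA or their reverse complement TTTCNNTTTC.
TRIM5: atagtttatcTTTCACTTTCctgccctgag
TRIM14: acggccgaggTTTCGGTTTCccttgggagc
TRIM21: ctgagcgGAAACTGAAAGTGAAAtagggag
TRIM34: gccccaaaaaTTTCACTTTCatttctcagg
TRIM26: cgcctgaTTTCAGTTTCCATTTCgctgccc

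The TRIM5 window lies at chr11:5685082-5685111 on the minus strand, with the match beginning 27 bases before the transcription start. The TRIM14 window is at chr9:98119229-98119258 on the minus strand, and its match begins 26 bases before the start. In TRIM34 the window is at chr11:5624901-5624930 on the plus strand and the match begins 90 bases before the start. The annotated span of TRIM34 begins earlier, at chr11:5619944, so this window lies inside the gene, before an internal start. TRIM21 and TRIM26 each carry 2 overlapping matches. Those of TRIM21 (chr11:4393663-4393692, minus strand) begin at base 18 of the transcript, and those of TRIM26 (chr6:30213578-30213607, minus strand) begin 194 bases before the start.

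Promoters in the table run from 250 bases before to 50 bases after the start, and both strands were searched. The letters occurred in 996 of 27305 promoters (3.65%), and in 268 of the 9658 promoters of genes tested here (2.77%). Of 59 TRIM genes, 47 had a promoter in the table and 9 of these held a match. Among the 27 detected members with a promoter, 8 held one: the 5 printed above and TRIM2, TRIM16 and TRIM44. A match is a description of the letters and not a mapped binding site. TRIM22 is not in the promoter table.

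The targeted gene was read first, as a check of the labels. HMGB2 stood at 116, 111 and 109 FPKM (fragments per kilobase of transcript, scaled to the mapped fragments of the library) in the mock libraries and at 22.1, 24.4 and 27.8 FPKM in the shHMGB2 libraries. It was 4.52-fold lower, with a log2 fold change of -2.14 (limma, SE 0.084, adjusted p = 0.000113). The deposited table holds no read counts. Steps of 1 read gave relative depths of the libraries from 1 to 1.88, with shHMGB2 replicate 3 the shallowest, and low members are the least precise there. All 8 squamous markers checked were detected, led by KRT5 at a mean of 3440 FPKM. Among markers of other cell types, PTPRC, the pan-leukocyte gene CD45, was at 0.03 FPKM or less in every library, PECAM1 of endothelium at 0.01 or less, and COL1A2 of fibroblasts at 0.01 or less. Another marker of each list did pass the detection rule: CD68 of leukocytes at a mean of 5.86 FPKM, LUM of fibroblasts at 3.03 FPKM and ERG of endothelium at 1.86 FPKM.

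A member counted as detected when its 6 libraries averaged 1 FPKM or more. By this rule 38 of the 59 members were detected (64.4%), against 48.1% of all rows. Some TRIM genes, such as TRIM40 and TRIM71, have no row, so this is a share of the members present and not of the whole family. All rows also include antisense genes and rows named with a number after the gene. The median detected member stood at 12.5 FPKM, beside 10.3 FPKM for all detected genes. Of the detected members 12 were at 20 FPKM or more, 18 between 5 and 20, and 8 between 1 and 5. The 5 highest held 42.0% of the summed FPKM of the family.

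Leading the family was TRIM28, the co-repressor also called KAP1 that KRAB zinc finger proteins bring to chromatin. Its mock libraries gave 102, 92.3 and 93.5 FPKM and its shHMGB2 libraries 97.9, 95.5 and 88.1 FPKM. The groups overlapped, with a log2 fold change of -0.03 (limma, SE 0.0659, adjusted p = 0.785). TRIM16, a member without a RING finger that acts in the clearing of damaged membranes, came next at 65.2 ± 2.95 FPKM in mock and 67.1 ± 3.03 FPKM in shHMGB2 libraries (SD, n = 3). Its SDs are as large as the gap between these groups (log2 fold change 0.04, limma adjusted p = 0.69). TRIM14, TRIM25 and TRIM21, all of the antiviral group, followed at means of 56.9, 50.5 and 41.3 FPKM. Over the 6 libraries, TRIM28 lay clear of every other member, while the ranges of TRIM16 (62.6 to 70.5 FPKM), TRIM14 (45.9 to 70.7), TRIM25 (43.7 to 57.2) and TRIM21 (32.7 to 49.6) each overlapped the next.

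**Figure D1:**
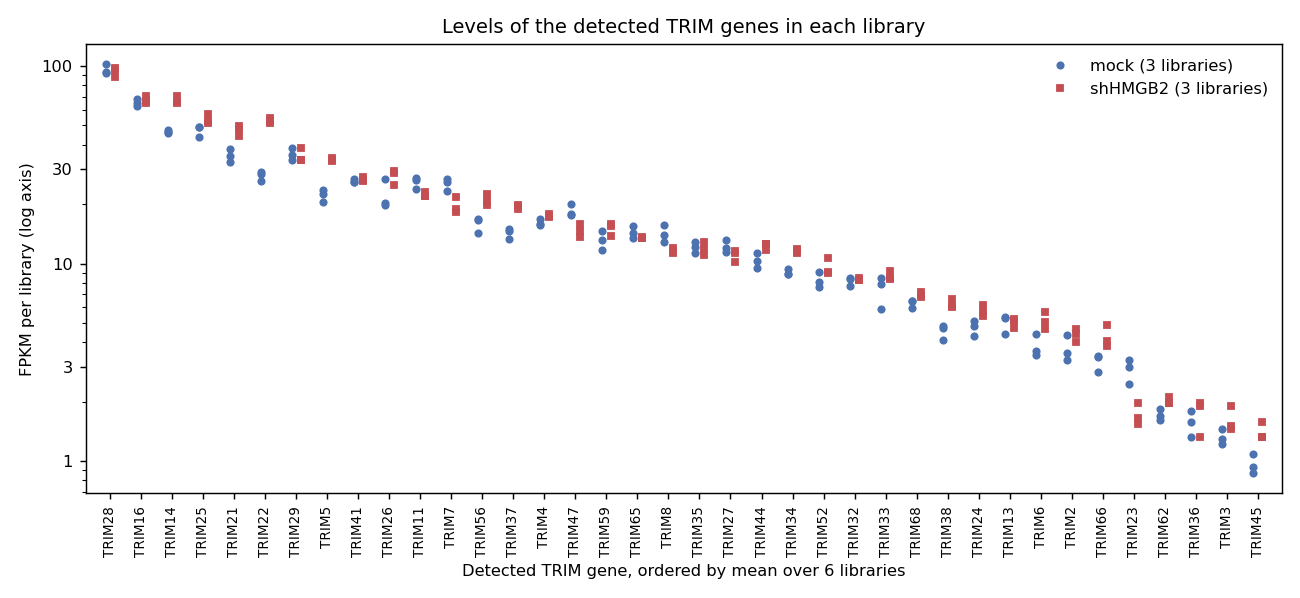
FPKM (log axis) of each of the 38 detected TRIM genes in the 3 mock libraries (circles) and the 3 shHMGB2 libraries (squares), ordered by the mean over 6 libraries. Levels run from 94.9 FPKM for TRIM28 to 1.19 FPKM for TRIM45, and the squares lie clear above the circles for TRIM14, TRIM22 and TRIM5.

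At the edge of detection, TRIM45 was just inside with 0.87, 0.93 and 1.08 FPKM in the mock and 1.58, 1.33 and 1.33 FPKM in the shHMGB2 libraries. It passed through its shHMGB2 libraries, since its mock mean was 0.96 FPKM, and it is the single detected member with a group mean under 1. TRIM3, TRIM36 and TRIM62 followed at means of 1.47, 1.65 and 1.86 FPKM. The highest member outside was TRIM74 at 0.525 FPKM, then TRIM49C at 0.423 and TRIM9 at 0.367. None of the 21 undetected members reached 1 FPKM in any library. They include the muscle ligases TRIM54, TRIM55, TRIM63 and TRIM72, and 6 of the 7 COS-box members with a numbered name in the table, a subfamily that binds microtubules. The relatives MID1 and MID2 have no numbered name and are not in this count. Both were detected, MID1 at 11.7 FPKM in mock and 13.6 FPKM in shHMGB2 libraries, and MID2 at 1.14 and 1.11 FPKM.

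After HMGB2 knockdown, 7 of the 10 listed interferon-inducible TRIM genes were higher past the test, and 1 of the detected members outside that list was. The list was chosen with earlier results of these data known, so this split is not an independent test. In the limma fit on log2(FPKM + 1) over 13409 genes, 8 of the 38 detected members rose, 1 fell and 29 did not pass an adjusted p of 0.05. Of all genes tested, 3.3% rose and 3.45% fell at this threshold. Over all genes these were 442 and 463 genes, and 349 and 571 under median-of-ratios scaling, where 8 members rose and 2 fell. The 8 that rose were TRIM22, TRIM5, TRIM14, TRIM21, TRIM37, TRIM38, TRIM56 and TRIM34, and TRIM23 fell. Fold changes on this scale understate those of low genes. The median log2 fold change of the detected members was 0.18, beside 0.04 for all genes. Above 0 were 27 of the 38 members, and 7647 of all 13409 genes tested. Groups did not overlap, with the shHMGB2 libraries higher, in 18 members and, with them lower, in 5. Over all genes these shares were 21.6% and 14%. At an unadjusted p under 0.05, 20 members differed, where 27.9% of all genes did. TRIM45, which was detected only through its shHMGB2 libraries, is among the 27, the 18 and the 20, and in the median of 0.18. Its place there is no evidence of a rise.

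With each library left out in turn, the members that rose numbered 3 to 6 and those that fell 0 or 1. Calls over all genes dropped as well, from 442 higher to 111, 97 and 118 without shHMGB2 replicates 1, 2 and 3 and to 123 without mock replicate 2, and stood at 358 and 449 without mock replicates 1 and 3. Fewest passed without shHMGB2 replicate 3, where 3 members rose and none fell. TRIM22, TRIM14 and TRIM5 passed under every alternative fit, with largest adjusted p of 0.0102, 0.0223 and 0.025. The other 6 called members each lost the call without 1 or more libraries, as given beside them.

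**Figure D2:**
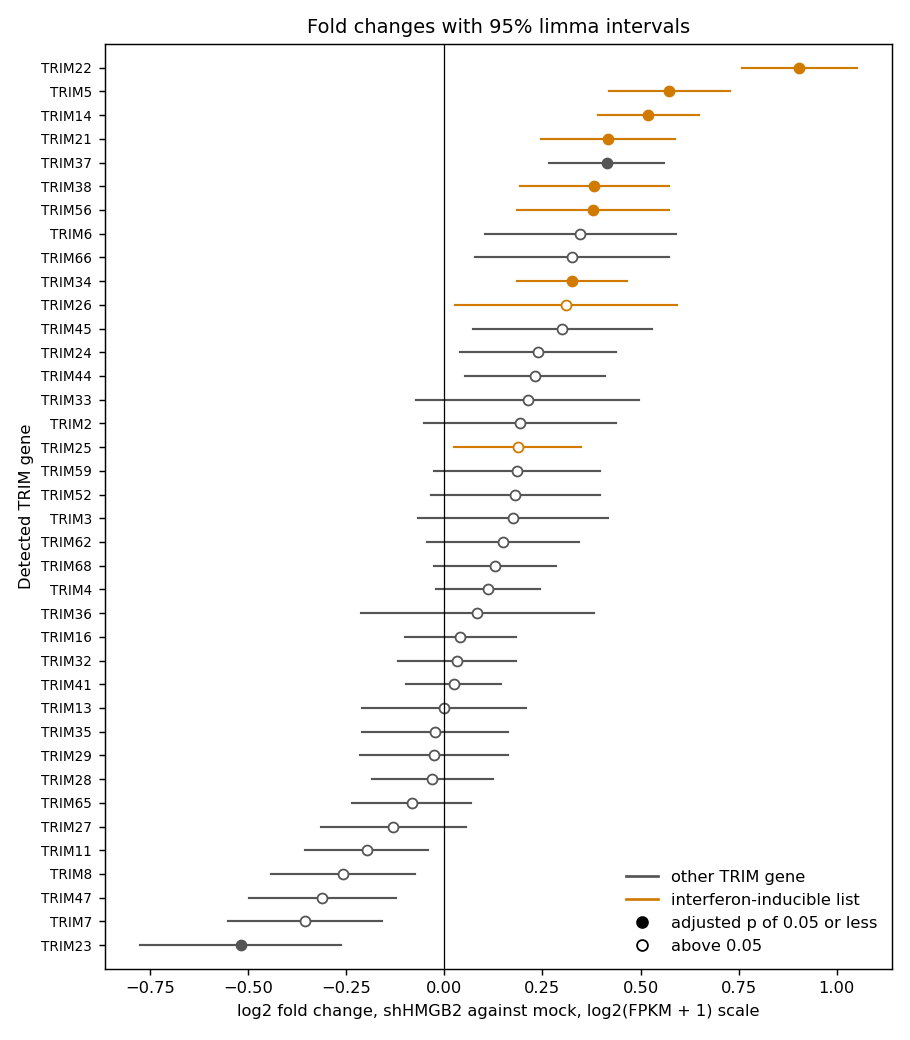
Log2 fold change (shHMGB2 against mock, log2(FPKM + 1) scale) with its 95% limma interval for each of the 38 detected TRIM genes. Filled points passed an adjusted p of 0.05, and orange marks the interferon-inducible list. The 9 orange genes all lie above 0, with TRIM22 at 0.90, while TRIM23 at -0.52 is the single filled point below 0.

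The interferon-inducible list held 10 TRIM genes, of which 9 were detected, TRIM69 being the exception. Of these 9, 7 rose and none fell, their median log2 fold change was 0.38, all 9 were above 0, and in 8 the groups did not overlap. Over all genes tested, 3.3% rose and 3.45% fell, and 7647 of 13409 were above 0. In 21.6% of all genes the groups did not overlap, with the shHMGB2 libraries higher. The summed level of the list ran from 219 to 243 FPKM in the mock libraries and from 310 to 335 FPKM in the shHMGB2 libraries. The 29 detected members outside the list had a median log2 fold change of 0.08, with TRIM37 the single riser and TRIM23 the single faller. Their summed level was 454 to 463 FPKM in mock and 450 to 465 FPKM in shHMGB2 libraries, so it overlapped. Without shHMGB2 replicate 1, 2 or 3, or mock replicate 2, the count of risers in the list was 3, 4, 3 and 4, and without mock replicate 1 or 3 it was 5 each. In a bulk sample, more cells with a transcript and more RNA per cell cannot be told apart.

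TRIM22, which blocks transcription and particle assembly of several viruses, had the largest change of the family. Its mock libraries stood at 26.1, 29.1 and 28.3 FPKM and its shHMGB2 libraries at 52.8, 51.2 and 54.9 FPKM. Every shHMGB2 library was well above the highest mock library, and the group means were 27.8 ± 1.59 and 52.9 ± 1.83 FPKM (SD, n = 3). The log2 fold change was 0.90 (limma, SE 0.0626, adjusted p = 0.000801), and TRIM22 ranked 17 by p among all genes tested.

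TRIM5, the restriction factor that recognises retroviral capsids, had 20.6, 23.7 and 22.4 FPKM in mock and 34.4, 33.3 and 32.9 FPKM in shHMGB2 libraries. All 3 shHMGB2 libraries were above all mock libraries, with a log2 fold change of 0.57 (limma, SE 0.0657, adjusted p = 0.00404). TRIM34, a close relative that acts against some lentiviruses alongside TRIM5, went from 8.89, 8.87 and 9.41 FPKM to 11.6, 11.8 and 11.3 FPKM. The groups were apart here as well, with a smaller log2 fold change of 0.33 (limma, SE 0.0598, adjusted p = 0.0229). Leaving out mock replicate 2 gave TRIM34 an adjusted p of 0.0993, and leaving out shHMGB2 replicate 1, 2 or 3 gave 0.0833, 0.107 or 0.0774. Both genes carry the same 10 capital letters in the windows printed above.

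TRIM14 has no RING finger and serves as an adaptor at mitochondria in MAVS signalling. It was the most abundant riser, at 46.5, 45.9 and 47.2 FPKM in mock and 70.7, 65.5 and 65.3 FPKM in shHMGB2 libraries. The mock libraries were tightly grouped (SD 0.654 FPKM, n = 3) and all lay below the shHMGB2 libraries. The log2 fold change was 0.52 (limma, SE 0.0553, adjusted p = 0.00303). NANS, whose span overlaps TRIM14, stood at 86.5 FPKM in mock and 77.6 FPKM in shHMGB2 libraries (log2 fold change -0.15, limma adjusted p = 0.235).

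TRIM21 is the cytosolic receptor for antibody-coated virus, known in autoimmunity as Ro52. Its libraries gave 35.2, 37.8 and 32.7 FPKM in mock and 49.6, 44.4 and 47.9 FPKM with the hairpin. All shHMGB2 libraries were higher, although both groups spread by more than 5 FPKM. The log2 fold change was 0.42 (limma, SE 0.0733, adjusted p = 0.0195), and the adjusted p was 0.0794 and 0.0774 without shHMGB2 replicates 1 and 3.

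TRIM38 and TRIM56 were the weakest calls of the list. TRIM38, which acts on TAB2 and on RIG-I-like receptors, stood at 4.12, 4.82 and 4.74 FPKM in mock and 6.65, 6.00 and 6.07 FPKM in shHMGB2 libraries. The groups were apart, with a log2 fold change of 0.38 (limma, SE 0.0814, adjusted p = 0.0371). TRIM56, a ligase that promotes cGAS-STING and double-stranded RNA signalling, had 14.3, 16.6 and 16.8 FPKM in mock and 22.6, 19.7 and 20.7 FPKM in shHMGB2 libraries. Its log2 fold change was also 0.38 (limma, SE 0.0832, adjusted p = 0.0406). Neither call survived leaving out any 1 of the 6 libraries, which gave adjusted p from 0.0533 to 0.124 for TRIM38 and from 0.0507 to 0.126 for TRIM56.

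TRIM25 and TRIM26 completed the list without passing the test. TRIM25, the ligase best known for ubiquitin chains on RIG-I, stood at 43.7, 49.0 and 48.9 FPKM in mock and 57.2, 52.8 and 51.6 FPKM in shHMGB2 libraries. The groups did not overlap, and the log2 fold change of 0.19 had a 95% interval from 0.03 to 0.35 (limma, SE 0.0694, adjusted p = 0.134). TRIM26, of the MHC region, had the largest standard error of the 9 detected list members. It stood at 19.9, 26.8 and 20.3 FPKM in mock and 29.4, 25.0 and 28.9 FPKM in shHMGB2 libraries. One mock library lay inside the shHMGB2 range, with a log2 fold change of 0.31 (limma, SE 0.122, adjusted p = 0.151).

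**Figure D3:**
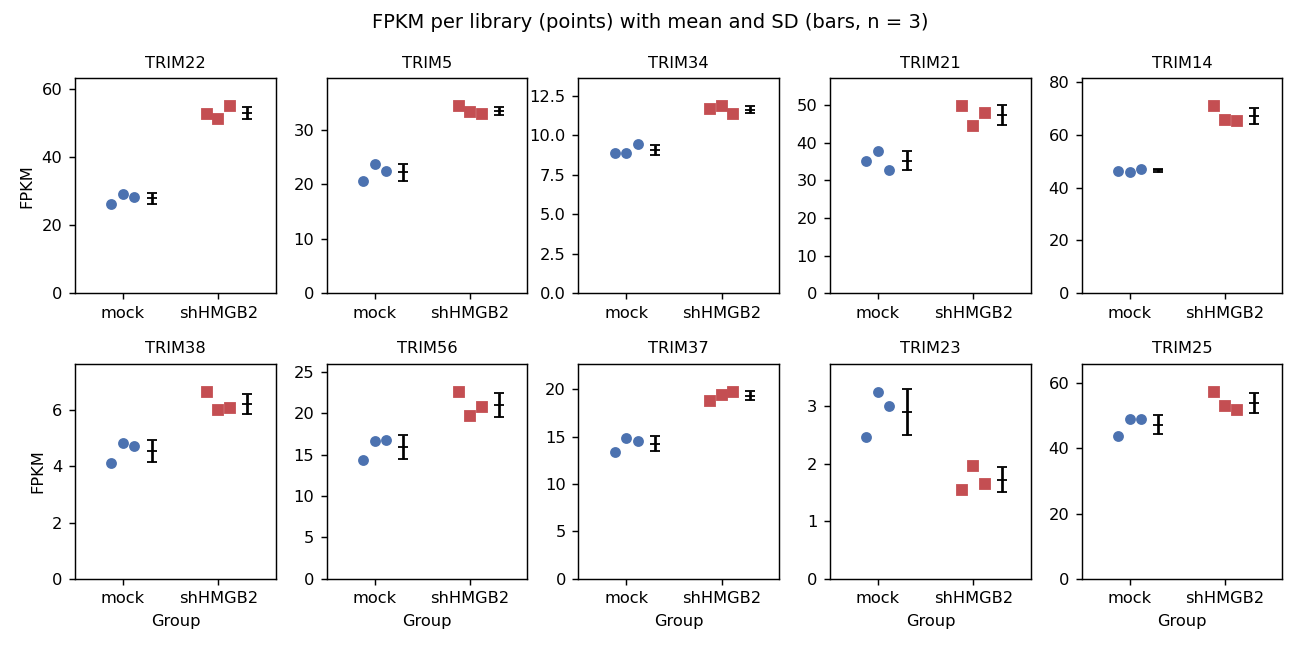
FPKM per library (points) with the mean and SD (bars, n = 3) for the 9 TRIM genes past the threshold and for TRIM25, each panel on its own axis from 0. The mock and shHMGB2 points do not overlap in any of the 10 panels, and only TRIM23 is lower with the hairpin.

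Outside the interferon-inducible list, TRIM37 rose and TRIM23 fell. TRIM37, a ligase of peroxisomes and centrosomes, went from 13.4, 14.9 and 14.6 FPKM in mock to 18.8, 19.5 and 19.7 FPKM in shHMGB2 libraries. The groups were apart, with a log2 fold change of 0.41 (limma, SE 0.0626, adjusted p = 0.0116), and the adjusted p was 0.0618 and 0.0593 without shHMGB2 replicates 2 and 3. PPM1E, which overlaps it, was at 1.17 and 1.51 FPKM (adjusted p = 0.299).

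TRIM23, which carries an ARF-like GTPase domain and modifies NEMO, had 2.46, 3.24 and 3.00 FPKM in mock and 1.54, 1.96 and 1.65 FPKM in shHMGB2 libraries. All shHMGB2 libraries were lower, at a level near the detection rule. The log2 fold change was -0.52 (limma, SE 0.11, limma adjusted p = 0.036). The adjusted p was 0.0264 without mock replicate 1 and between 0.0685 and 0.121 without any other single library.

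The 29 members that did not pass had log2 fold changes from -0.35 to 0.35, and in 15 of them the groups overlapped. TRIM7, a PRY-SPRY ligase that binds glycogenin, had the smallest p of these. It stood at 26.8, 25.8 and 23.3 FPKM in mock and 21.6, 18.8 and 18.3 FPKM in shHMGB2 libraries, with no overlap and a log2 fold change of -0.35 (adjusted p = 0.0503). Without mock replicate 3 its adjusted p was 0.0466. An antisense gene, TRIM7-AS2, overlaps it at 0.63 to 2.4 FPKM in single libraries, and the sources used here do not state whether counting used strand. TRIM47 (log2 fold change -0.31, limma adjusted p = 0.0626), TRIM8 (-0.26, 0.0897) and TRIM11 (-0.20, 0.112) were the other members with separated groups and lower values in the shHMGB2 libraries.

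By C-terminal domain, 6 of the 20 detected PRY-SPRY members rose and none fell, with a median log2 fold change of 0.14. All 6 are on the interferon-inducible list, so the same genes are counted again here. Of all genes tested, 3.3% rose and 3.45% fell. This domain binds targets such as viral capsids. None of the 4 PHD-bromodomain members (TRIM24, TRIM28, TRIM33 and TRIM66), which read histone marks, passed the test, nor did the 3 detected NHL-repeat members (TRIM2, TRIM3 and TRIM32). Of the 10 detected members with another C-terminal end or none, 2 rose and 1 fell. A fixed list of regulators of RIG-I and innate sensing had 13 detected members. Of these, 3 rose (TRIM21, TRIM38 and TRIM56) and none fell, with a median of 0.03, near that of all genes. These 3 are on the interferon-inducible list too. The list of regulators is not complete. It leaves out TRIM14, which rose, TRIM23, which fell, and TRIM6, which did not pass, all described here as acting in such signalling. Of the 5 members without a RING finger, TRIM14 alone rose.

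Of 8 detected TRIM genes that lie within the first 9 Mb of chromosome 11, all had a log2 fold change above 0 and 4 rose. Over all 13409 genes tested, 7647 were above 0 and 3.3% rose. The 4 that rose, TRIM5, TRIM21, TRIM22 and TRIM34, are all on the interferon-inducible list, so position and list are not separate results. TRIM5, TRIM6, TRIM34 and TRIM22 form a cluster of 122 kb in this stretch (chr11:5588635-5710863), and TRIM21 lies at chr11:4384897-4393702. TRIM6, which makes unanchored ubiquitin chains in interferon signalling, stood at 3.45, 3.62 and 4.41 FPKM in mock and 5.07, 5.68 and 4.64 FPKM in shHMGB2 libraries. The groups did not overlap, but the change did not pass (log2 fold change 0.35, limma adjusted p = 0.0889). The annotated span of TRIM5 overlaps TRIM6 and TRIM34, so reads at these near relatives could be shared, and their values may not be independent. TRIM66, farther along the arm, overlaps the ribosomal protein gene RPL27A at 418 FPKM, and its own 4.26 FPKM in shHMGB2 libraries may be uncertain for that reason. These overlaps are of whole gene spans, and shared exons or reads were not examined.

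**Figure D4:**
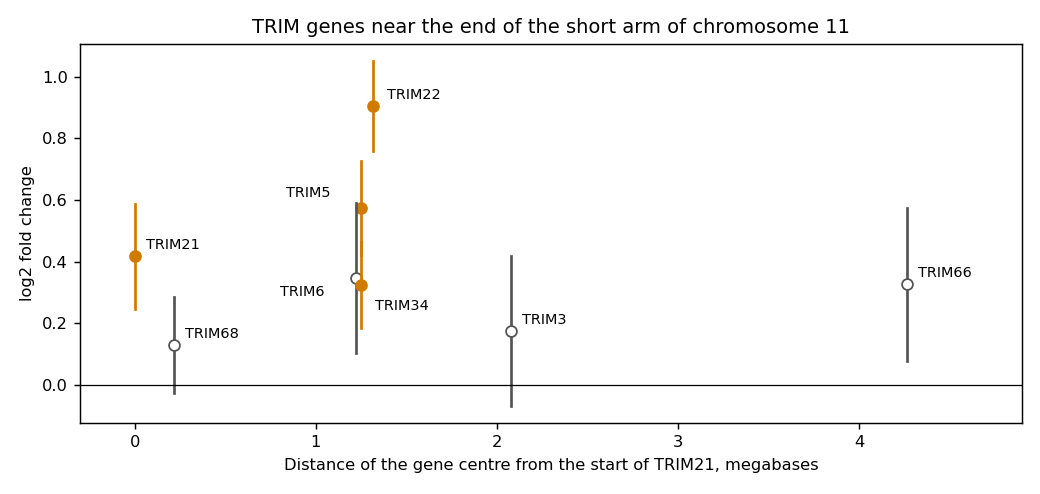
Log2 fold change with its 95% limma interval for the 8 TRIM genes within the first 9 Mb of chromosome 11, against the distance of the gene centre from the start of TRIM21 in megabases. Orange marks the interferon-inducible list and filled points passed an adjusted p of 0.05. All 8 points lie above 0, and TRIM22 is the highest at 0.90.

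Chromosome 6 holds 7 members, of which 3 were detected by their own row and TRIM38 rose. Several of them lie in the MHC region, and the table also holds rows named with a number after the gene, such as TRIM27-2. These rows were read as copies of the same gene, which the deposited table does not state, and the sums below rest on that reading. Over the whole family there are 33 such rows for 7 members, with TRIM69 of chromosome 15 among them and TRIM38 not. TRIM39 is the clearest case: its own row gave 0.137 FPKM, 1.87% of the 7.31 FPKM summed over its rows. Summed, TRIM39 stood at 6.68, 7.67 and 7.36 FPKM in mock and 7.62, 7.06 and 7.45 FPKM in shHMGB2 libraries, with overlapping groups (log2 fold change 0.03, limma adjusted p = 0.843). With copy rows added, 39 members in place of 38 would count as detected.

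TRIM27, a regulator of TBK1, had the same values in its own row and in 2 copy rows, and the own row held 31.2% of a summed 37.2 FPKM. Its log2 fold change stayed small when summed, at -0.08 (adjusted p = 0.535). For TRIM26 the own row held 76.5% of 32.7 FPKM. Summed, it stood at 27.3, 31.3 and 29.8 FPKM in mock and 39.3, 34.2 and 34.4 FPKM in shHMGB2 libraries. The groups then separated, with a log2 fold change of 0.28 (limma, SE 0.0793, adjusted p = 0.0783), which did not pass.

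**Figure D5:**
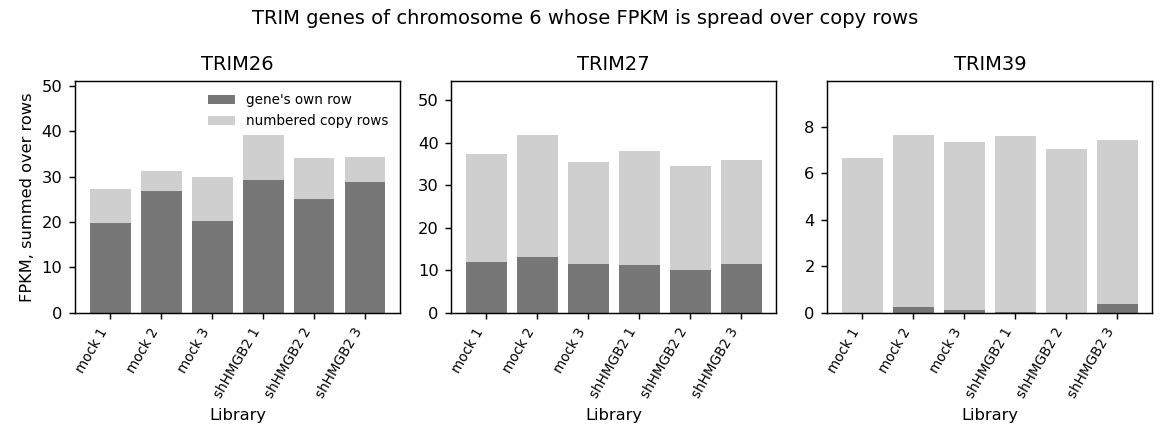
FPKM of TRIM26, TRIM27 and TRIM39 in each library as stacked bars, with the gene's own row in dark grey and its numbered copy rows in light grey. The own row is 76.5% of the sum for TRIM26, 31.2% for TRIM27 and 1.87% for TRIM39.

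The letters of the ISRE were set beside the calls. Of the 7 members that rose and have a promoter in the table, 4 held a match (TRIM5, TRIM14, TRIM21 and TRIM34), as did 4 of the other 20 detected members with one. Of the 8 interferon-inducible members with a promoter, 5 held a match. TRIM2, TRIM16, TRIM26 and TRIM44 held a match without passing the test (log2 fold changes 0.19, 0.04, 0.31 and 0.23). TRIM37, TRIM38 and TRIM56 rose and had a promoter without a match.

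Genes around the TRIM ligases in the same pathways were read from lists. Of 19 genes of RIG-I and interferon signalling, all detected, 9 rose and 1 fell, with a median log2 fold change of 0.34, where 3.3% of all genes rose and 3.45% fell. The 3 with the largest change were the sensor IFIH1 (MDA5), from 31.7 to 52.6 FPKM (log2 fold change 0.72, limma adjusted p = 0.00477), the signal transducer STAT2, from 31.9 to 49.6 FPKM (0.63, 0.00644), and the RIG-I-like receptor DHX58 (LGP2), from 5.81 to 9.52 FPKM (0.62, 0.0202). IRF7, an interferon transcription factor, fell from 2.19 to 1.18 FPKM (-0.55, 0.0483). The IRF7 call held without mock replicate 3 and was lost without any other single library, with adjusted p from 0.0738 to 0.152. DHX58 was lost without mock replicate 2 (adjusted p = 0.0653) or shHMGB2 replicate 1 (0.0662). Without shHMGB2 replicate 1 or 3 the risers in this list numbered 4, and without shHMGB2 replicate 2 or mock replicate 2 they numbered 5.

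Of 23 detected genes for ubiquitin, E1 and partner E2 enzymes, 1 rose and none fell, a share near the 3.3% of all genes that rose, with a median of -0.01 beside 0.04 for all genes. The riser was UBE2L6, an E2 enzyme for ISG15, at 93.0 ± 6.52 FPKM in mock and 148 ± 12.6 FPKM in shHMGB2 libraries (log2 fold change 0.66, limma adjusted p = 0.00538). Among 15 silencing partners of TRIM28, 2 rose (3.3% of all genes did), the heterochromatin proteins CBX5 (HP1 alpha; 0.57, limma adjusted p = 0.0117) and CBX1 (HP1 beta; 0.25, 0.0384), while TRIM28 itself did not pass. Without mock replicate 2 or shHMGB2 replicate 1 or 2 neither passed, and without any other single library 1 did. Of 5 detected TRIM relatives outside the numbered names none passed. PML, the organiser of nuclear bodies, had the smallest p of these, at 31.4 FPKM in mock and 35.7 FPKM in shHMGB2 libraries (0.18, limma adjusted p = 0.208).

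Markers of other cell types were read beside the interferon-inducible members, which leukocytes also express. The 6 leukocyte markers in the table summed to 7.28 to 8.25 FPKM in mock and 5.23 to 5.95 FPKM in shHMGB2 libraries. Most of this was CD68, at 7.39, 7.59 and 6.86 FPKM in mock and 4.65, 4.42 and 4.23 FPKM in shHMGB2 libraries. CD74 went the other way, from 0.34, 0.37 and 0.24 FPKM to 0.81, 0.59 and 0.59 FPKM without overlap, and LYZ was at 0, 0.08 and 0.03 FPKM beside 0.09, 0.13 and 0.10 FPKM. Both of these stayed under 1 FPKM in every library and were not in the fit. Fibroblast markers summed to 2.94 to 3.69 FPKM in mock and 3.97 to 4.43 FPKM in shHMGB2 libraries, most of it LUM, and endothelial markers to 1.88 to 2.58 FPKM and 2.39 to 2.81 FPKM, most of it ERG. The labels name KYSE450 cells and no other cell type, and whether any of these transcripts come from other cells was not tested.

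The authors' deposited table gave its own adjusted p for the 38 detected members. At 0.05 it had 8 members higher and 5 lower, where it had 6.13% of genes higher and 9.23% lower. Of these, 7 higher members and TRIM23 were called by the limma fit too. By the authors' deposited table alone TRIM66 was higher and TRIM7, TRIM8, TRIM11 and TRIM47 were lower, while TRIM34 missed at an adjusted p of 0.0797. None of the members carries an Up or Down mark in the authors' deposited table, where the log2 fold changes of the higher members run from 0.32 to 0.86.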

How the data were processed

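RNA-seq of KYSE450 cells gave 6 libraries, 3 mock and 3 shHMGB2, grouped by the labels. Per the labels' protocols, RNA was extracted with Trizol and sequenced from mRNA libraries. Per the submitters' processing notes, which give no roles, Bowtie2 2.2.5, RSEM 1.2.12 and hg38 were used. The authors deposited 1 table with FPKM per library, per the file headers. It also holds deposited group values, a normalized signal, a deposited log2 fold change, and the authors' p-value and adjusted p-value from a test that the sources used here do not name. Summed FPKM ran from 740684 to 829437 per library. Reads per gene were not recovered, so no count test was run.

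FPKM values of genes with a mean of at least 1 were taken as log2(FPKM + 1) and fitted in R 4.3.3 with limma 3.58.1. The model held group alone, used a trend in the variance, and p-values were adjusted by Benjamini-Hochberg across 13409 genes (threshold 0.05, 2-sided). The fit was checked on simulated data. Alternatives changed the pseudocount (0.1), the filter (none, or a mean of 5 FPKM), the scaling, the trend, array weights and the threshold, added a replicate block, or left out each library. Genes named were HMGB2, members past the threshold, TRIM22, TRIM21 and TRIM25, detected interferon-inducible members, the 5 highest, the nearest miss, members at 0.5 to 2 FPKM, and from other lists up to 3 called genes by size of change, or the smallest p. Other members are named to complete a domain class, a cluster, a motif or copy count, or the authors' calls, and those were chosen after their values were seen. Members and lists were chosen with earlier results of these data known. All 59 members matched RefSeq gene names. Annotation, promoters and gene spans are from RefSeq (GRCh38.p14).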

Additional observations from a re-analysis of the deposited data

How the results depend on the processing

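In place of 9 TRIM genes past the threshold (8 higher, 1 lower), testing without a filter gave 5 (5 and 0), array weights 22 (15 and 7), a threshold of 0.01 3 (3 and 0), and leaving out 1 library 3 to 7 (3 to 6 and 0 to 1). Over all genes, 442 rose and 463 fell, 167 and 245 without a filter (27887 genes tested) and 2436 and 1758 with array weights. Lower members were 2 with a mean of at least 5 FPKM, with median-of-ratios scaling and with quantile normalization, and 4 at a threshold of 0.1. Over all genes, 475 of 9312 were lower with a mean of at least 5 FPKM, and 571 with median-of-ratios scaling and also with quantile normalization. Counts over all genes at thresholds of 0.1 and 0.01 are not given here, so member counts there have no share beside them. Of the interferon-inducible members, 7 of which rose, 4 rose without a filter, 3 at 0.01 and 3 to 5 with 1 library left out. Of RIG-I and interferon signalling genes, 9 rose and 1 fell. Without a filter 4 and 0 did, at 0.01 3 and 0, and with 1 library left out 4 to 9 and 0 to 1. The lower count was 0 with a pseudocount of 0.1 or a mean of at least 5 FPKM and 3 with array weights. Ubiquitin genes higher were 2 under quantile normalization and 3 with array weights. Partners of TRIM28, 2 higher, gave 1 without a filter, with median-of-ratios scaling or without the trend, 8 with array weights, 0 at 0.01 and 0 to 1 with 1 library left out. The cause of these shifts was not tested.

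Labels give both groups the numbers 1 to 3, but same-numbered libraries did not deviate together (r -0.01, -0.04 and -0.10). With the replicate block, 4 TRIM genes passed, 4 higher and 0 lower. Over all genes 138 were higher and 234 lower with the block. Interferon-inducible members higher were 3, signalling genes 5 higher and 0 lower, and TRIM28 partners 0.

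Over all named genes and alternatives, 638 fold changes kept their direction and side of the threshold, 61 lost the call, 18 gained it and 17 switched sign, all of them small. TRIM32 was -0.00179 with median-of-ratios scaling and -0.0191 with quantile normalization, TRIM28 0.0115 with quantile normalization and 0.0108 with array weights, TRIM41 -0.0135 with median-of-ratios scaling, and TRIM29 0.0287 with array weights. With 1 library left out, log2 fold changes ran from -0.00366 to 0.0545 for TRIM32, -0.0618 to 0.0133 for TRIM28, -0.0928 to 0.0253 for TRIM29, -0.0788 to 0.0282 for TRIM35 and -0.0773 to 0.0392 for TRIM13.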
